A study of Mus musculus with 6 samples.

Results

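The 7 genes described here, Apoe, Apoc1, Trem2, Tyrobp, Abca1, Lrp1 and Syk, were chosen by name from the 32285 mouse genes counted in every library. They link lipid carriers to the microglial receptor that binds them. Apolipoprotein E and the small apolipoprotein C-I coat lipoprotein particles, and the transporter Abca1 loads cholesterol onto them. Trem2 is a surface receptor of microglia and macrophages that binds lipids and apolipoproteins. It has no signalling tail of its own and signals through the adaptor Tyrobp (DAP12), which recruits the kinase Syk. Lrp1 is an endocytic receptor that takes up Apoe-bearing particles. In the brain, microglia that surround dying cells or protein deposits are known to raise Apoe, and part of that programme needs Trem2.

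The cells came from Line 61 mice, which carry full-length human α-synuclein (α-Syn) under the Thy1 promoter, active mainly in neurons. All animals were males, 12 to 15 weeks old when injected, and every group carried the transgene. They received bilateral injections into the striatum of PBS, of human α-Syn monomer, or of sonicated human α-Syn preformed fibrils (PFFs, aggregates that seed further aggregation). PFF-injected mice were given vehicle (PFF + VH) or AZD1480, an inhibitor of the kinases JAK1 and JAK2, at 25 mg/kg by mouth (PFF + AZD1480) from week 2 after the injection. Ventral midbrains were taken at week 6, and 3 to 5 of them were pooled for a sample. Live CD45+ cells, meaning leukocytes and microglia, were sorted and sequenced as 1 single-cell library per condition. PBS and monomer were therefore compared with PFF by values only, without a test. The PFF libraries carried hashtags, antibody-borne barcodes that mark the sample of origin, 4 in PFF + VH and 5 in PFF + AZD1480. Each hashtag was taken as 1 sample. Because each treatment sat in 1 library, treatment and library cannot be told apart, and p-values over hashtags measure only the spread between hashtags. In the tests of summed counts that spread is estimated partly or wholly from all genes pooled, not from the gene alone.

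Cells were classed by the UMIs (counted molecules) of 10 fixed markers per cell type, and none of the 7 genes was a marker. Microglia made up 92.1% to 93.0% of the cells of each library, and border macrophages, the macrophages of the meninges and vessels, numbered 146 to 240 cells per library. The PFF + VH library was shallower, with a median of 2306 UMIs per cell against 6616 to 7028 in the others. In it 52.0% of cells carried 1 hashtag, against 81.0% in PFF + AZD1480. At most 1.03% of the cell barcodes of the smaller library were shared between any pair of libraries. Levels are given as CPM, the counts of a gene scaled by a factor of 1e6 over all counts of the class. T cells, which should lack microglial genes, held 392 and 450 CPM of the 10 microglial markers after PBS and monomer, and 1099 and 961 CPM after PFF with vehicle and with AZD1480. Microglia themselves held 9418 to 11435 CPM of these markers. The 10 markers of astrocytes, which also make Apoe and lack CD45, summed to 129 to 201 CPM in microglia, with none at 0.

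Apoe (ENSMUSG00000002985) lies on chromosome 7 of GRCm38 at 19696109-19699188, minus strand. Apoc1 (ENSMUSG00000040564) lies 3448 bases away on the same strand at 19689481-19692660, and Tyrobp (ENSMUSG00000030579) is on the same chromosome at 30413760-30417585. Trem2 (ENSMUSG00000023992) lies on chromosome 17 at 48346401-48354147, Abca1 (ENSMUSG00000015243) on chromosome 4 at 53030787-53159895, Lrp1 (ENSMUSG00000040249) on chromosome 10 at 127538161-127621148, and Syk (ENSMUSG00000021457) on chromosome 13 at 52583173-52648792. RefSeq windows before the start sites (GRCm38.p6) were at hand for 5 of the 7 genes, as 8 windows of 250 bases. AZD1480 acts upstream of STAT factors, so TTCNNNGAA, the palindromic STAT motif, was looked for on both strands: 1 of the 8 windows held it, that of Lrp1, against 7.02% of all 32851 windows. GAGGAA, the core of the sites of the macrophage factor PU.1, was held by 4 of the 8 windows (of Apoe, Syk and Trem2), against 23.3% of all windows. The windows of Apoe and Trem2, the genes on which the results turn, are shown 5′ to 3′ with GAGGAA, or its reverse complement, in capitals. The match lay 250 bases before the start in Apoe (chr7:19699189-19699438, minus strand) and 40 bases before it in Trem2 (chr17:48346151-48346400, plus strand).
Apoe: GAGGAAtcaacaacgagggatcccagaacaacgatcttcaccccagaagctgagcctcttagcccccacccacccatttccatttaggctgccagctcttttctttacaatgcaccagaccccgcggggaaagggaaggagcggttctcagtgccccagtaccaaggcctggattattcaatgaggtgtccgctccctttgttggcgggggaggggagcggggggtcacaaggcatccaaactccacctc
Trem2: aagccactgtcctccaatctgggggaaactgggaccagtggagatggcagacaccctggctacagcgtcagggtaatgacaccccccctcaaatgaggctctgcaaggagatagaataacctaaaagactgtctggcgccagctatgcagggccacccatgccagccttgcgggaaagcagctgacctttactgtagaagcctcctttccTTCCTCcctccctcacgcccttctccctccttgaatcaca

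Across cell classes the 7 genes divided. Apoe was by far highest in border macrophages, at 29352 to 40763 CPM over the 4 libraries. Monocytes held 2880 to 3665 CPM, more than microglia after PBS and monomer and less than microglia in both PFF libraries. Trem2 and Lrp1 were highest in microglia, at 1695 to 1860 CPM and 295 to 325 CPM. Tyrobp was high in every myeloid class and in NK cells, where it serves other receptors, reaching 2447 to 4255 CPM in neutrophils. Syk, which also signals below the B-cell receptor, was higher in B cells (303 to 826 CPM), neutrophils (258 to 768 CPM) and monocytes (275 to 474 CPM) than in microglia (104.8 to 145 CPM). Abca1 was highest in border macrophages, at 326 to 442 CPM. Apoc1 was scarce, at 1.06 to 6.58 CPM in microglia. Taking the libraries in the order PBS, monomer, vehicle and AZD1480, Apoe in T cells stood at 153, 640, 604 and 1225 CPM, and Trem2 at 103, 71.9, 268 and 298 CPM. Other lymphoid cells held more Apoe in some libraries: B cells 642, 1943, 1294 and 1109 CPM, and NK cells 147, 265, 1356 and 1703 CPM. In monomer the B-cell value was above that of microglia. The part of free RNA or mixed droplets in these values was not tested.

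**Figure D1:**
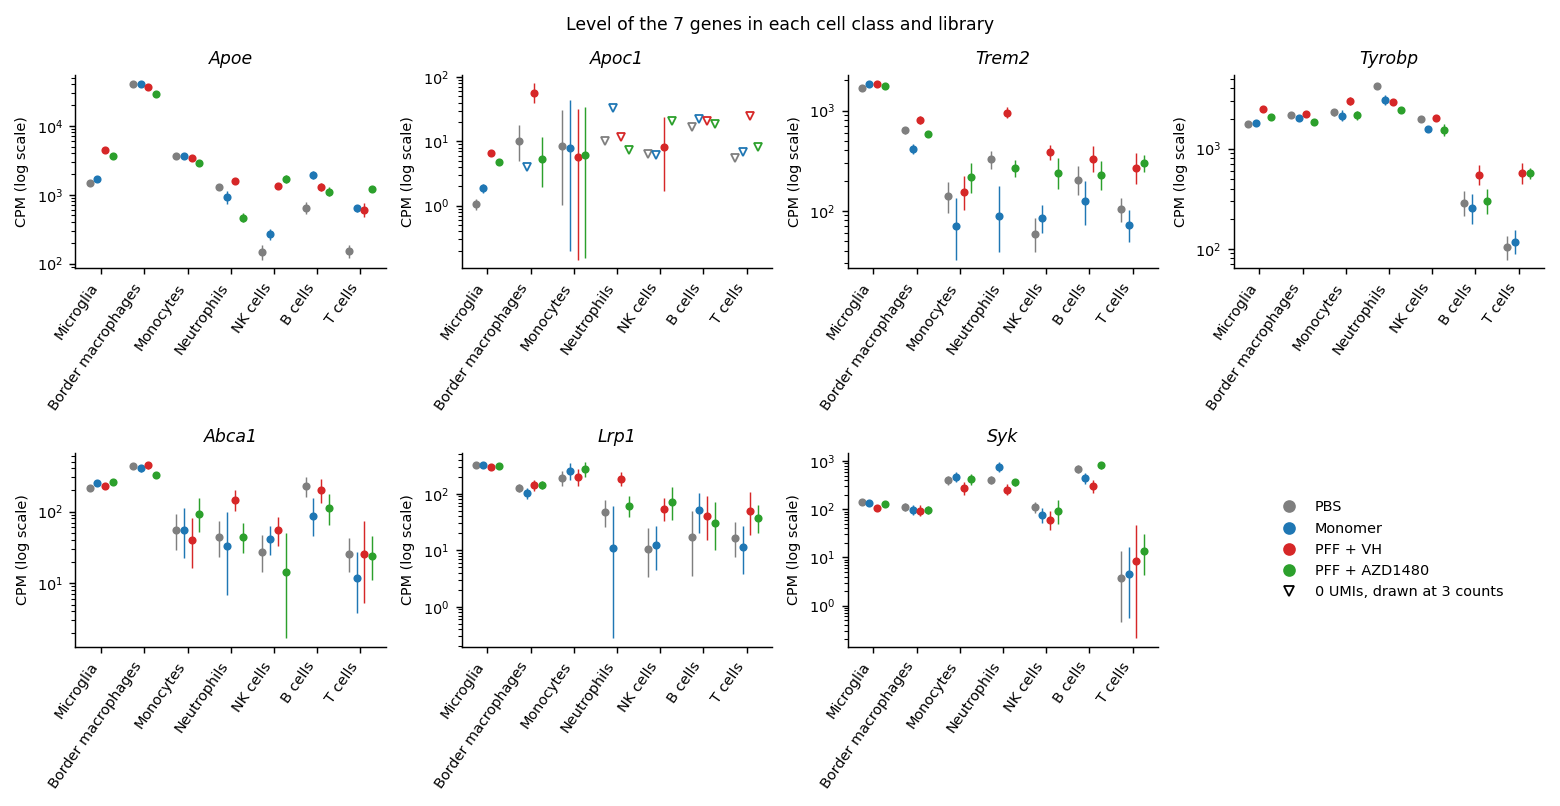
CPM of each gene (log scale) in 7 cell classes, with 1 point per library and exact 95% Poisson intervals that cover counting error only. Open triangles stand for classes with 0 UMIs and are drawn at 3 counts. Apoe peaks in border macrophages (29352 to 40763 CPM), Trem2 and Lrp1 in microglia, and Syk in B cells and neutrophils.

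The next comparison asked how microglia of the PFF libraries stood against those given PBS or monomer. Apoe in microglia was 1487 CPM after PBS and 1707 CPM after monomer, but 4398 CPM after PFF with vehicle and 3648 CPM after PFF with AZD1480. Against PBS these are ratios of 1.15, 2.96 and 2.45. Both PFF libraries stood well above both controls, and monomer close to PBS. Only the PFF libraries carried hashtags, and dosing by mouth is given only for their mice, so PFF cannot be told apart from either. The 10 border macrophage markers, none at 0, moved the same way in these microglia, at 22.0, 21.6, 56.7 and 40.1 CPM in the same order, against 9161 to 12391 CPM in border macrophages; their part in the Apoe values was not tested. Apoc1 followed the same order at a far lower level, at 1.06, 1.85, 6.58 and 4.81 CPM. Tyrobp was 1762, 1800, 2481 and 2088 CPM, a ratio of 1.41 for PFF + VH. Trem2, at 1695, 1860, 1846 and 1769 CPM, differed by a ratio of at most 1.10. Lrp1 stayed between 295 and 325 CPM, and Abca1 between 211 and 260 CPM. Syk was lowest in PFF + VH, at 104.8 CPM, against 145 CPM after PBS, 137 CPM after monomer and 129 CPM with AZD1480. Of the 6 members at or above 50 CPM, Apoe alone was at least 1.5-fold higher than after PBS in either PFF library, none was after monomer, and none was 1.5-fold lower in any of the 3. Among the 3455 genes at or above 50 CPM, 2% were that much higher and 0.637% lower with vehicle, 1.77% and 0.608% with AZD1480, and 0.0289% and 0.318% after monomer. The median log2 ratio of those 3455 genes was −0.13, so levels in PFF + VH sat slightly low as a whole.

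Few microglia held many Apoe copies, and they were more frequent after PFF. After every cell was thinned to 1000 UMIs, leaving out 299 to 4316 shallower microglia per library, at least 10 Apoe UMIs were found in 2.97% of microglia after PBS and 3.52% after monomer, and in 10.7% with vehicle and 9.32% with AZD1480 after PFF. The share with at least 3 was 9.67%, 14.4%, 32.7% and 20.2% in the same order. Any Apoe UMI was found in 26.7% (95% exact binomial interval 25.9% to 27.4%), 36.4%, 68.1% and 49.3%, again in that order. In T cells, with median depths of 2541 to 6132 UMIs against 2744 to 7367 in microglia, the share with any Apoe UMI was 10.5%, 18.6%, 37.5% and 50.8%. With AZD1480 the share of microglia with any UMI was thus no higher than that of T cells, whereas the share with at least 3 stood above the 4.76% of T cells. Border macrophages had Apoe in 99.4% to 100% of cells. Without thinning, 89.0% ± 3.37 (SD, n = 5) and 89.6% ± 1.33 (SD, n = 4) of microglia per hashtag had a UMI with AZD1480 and with vehicle.

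**Figure D2:**
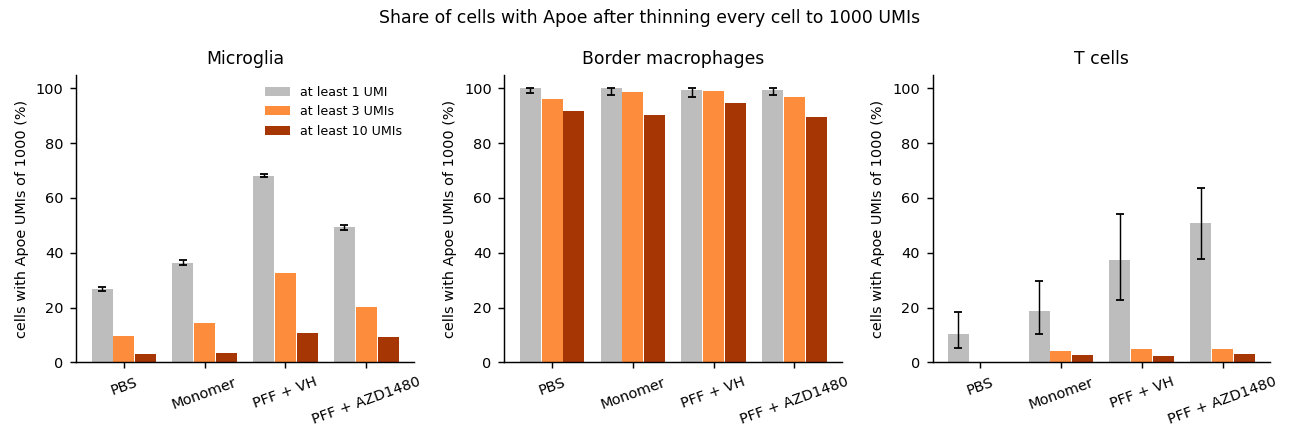
Percent of cells with at least 1, 3 or 10 Apoe UMIs after thinning each cell to 1000 UMIs, by library, in microglia, border macrophages and T cells; error bars on the first bar are exact 95% binomial intervals. At least 10 UMIs were found in 2.97% of PBS microglia and 10.7% of PFF + VH microglia, and in 89.5% to 94.5% of border macrophages.

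Border macrophages and microglia of the same hashtag were then set side by side. All 7 genes passed the test, 3 higher in border macrophages and 4 lower, where 27.5% of 10937 genes passed, 9.26% higher and 18.2% lower. Of the genes called 33.7% were higher, against 44.1% in DESeq2. The test was the quasi-likelihood test of edgeR, adjusted over all genes by Benjamini-Hochberg, at a threshold of 0.05. The classes do not rest on these genes. Apoe in border macrophages was 43181, 36125, 29377 and 35656 CPM in hashtags 1 to 4 of PFF + VH and 24599, 27108, 34152, 31927 and 31419 CPM in hashtags 1 to 5 of PFF + AZD1480. No microglial value came near these, the highest being 5714 CPM. The log2 fold change was 2.98 ± 0.14 (SE), higher in 9 of 9 hashtags (adjusted p = 7.99e-101; a p of this size reflects a spread pooled over genes). Trem2 went the other way, at 283 to 781 CPM in border macrophages against 1613 to 1980 CPM in microglia, a log2 fold change of −1.75 ± 0.14 and lower in 9 of 9. The microglial markers themselves were 1842 to 2409 CPM in the border macrophages of each hashtag against 8953 to 10263 CPM in microglia, and the part of free RNA or mixed droplets in the Trem2 counted there was not tested.

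Lrp1 was also lower in border macrophages in 9 of 9 hashtags (log2 fold change −1.26 ± 0.16, adjusted p = 2.93e-13 in edgeR). Abca1 was higher in 8 of 9 (0.44 ± 0.14, adjusted p = 0.0093), but did not pass without hashtag 2 of PFF + VH, its highest value (0.32, adjusted p = 0.11), or with no filter on low counts (adjusted p = 0.084). Apoc1 was higher in 6 of 9 (2.07 ± 0.43, adjusted p = 1.78e-05), with 0 UMIs in border macrophages of 3 hashtags of PFF + AZD1480. Without the hashtag term it did not pass (1.86, adjusted p = 0.090). Tyrobp and Syk differed little, by −0.34 ± 0.13 (adjusted p = 0.030) and −0.45 ± 0.18 (adjusted p = 0.049). With DESeq2's size factors in edgeR neither passed (adjusted p = 0.16 and 0.13), and leaving out single hashtags lost Syk for 6 of the 9 and Tyrobp for 3. With graph clusters in place of marker classes Trem2 was −0.83 and Lrp1 −0.66, both past the threshold, while Syk turned to 0.47 (adjusted p = 0.0019), Tyrobp to 0.08 and Abca1 was 0.05, the last 2 not past the threshold. The cluster named border macrophages was a wider set, at 505, 445, 1323 and 543 cells in PBS, monomer, PFF + VH and PFF + AZD1480. The marker class held 218, 146, 207 and 240 in that order. No cluster was named for monocytes or dendritic cells. The wider lists of the pathway are counted beside the 9.26% of all genes that were higher in border macrophages and the 18.2% that were lower. All 3 other lipid carriers tested rose in border macrophages: Apod (5.25 ± 0.37), Pltp, which transfers phospholipid between lipoproteins (5.07 ± 0.18), and Apoc2 (2.01 ± 0.52). Of 11 genes of lipoprotein receptors and their regulators 4 rose and 5 fell, with the scavenger receptors Cd36 at 6.71 ± 0.18 and Msr1 at 5.09 ± 0.19, and Olr1 at −4.17 ± 0.52. Of 18 signalling genes linked to Syk, most of which act below it and some, such as the kinase Lyn, above it, 1 rose, Vav3, and 10 fell, among them Plcg2, the phospholipase that Syk activates (−1.92 ± 0.20), and the linker Blnk (−1.40 ± 0.15). Of 10 receptor, adaptor and regulator genes linked to Tyrobp or Trem2, 2 rose and 7 fell. Of 18 genes of efflux, storage and lysosomal lipid, 3 rose and 5 fell, with Plin2 at 1.70 ± 0.21 and the lipase Lpl at −1.996 ± 0.27. Here the medians were 5.07, −0.15, −0.62, −0.88 and −0.02 in that order, beside −0.17 over all genes.

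**Figure D3:**
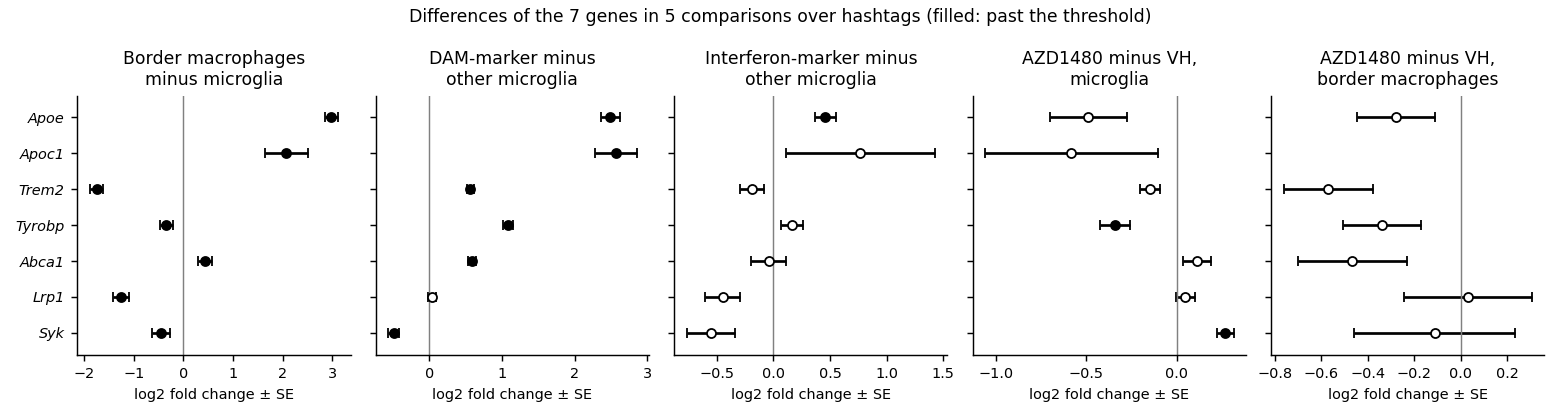
Log2 fold change ± SE of each gene in 5 comparisons over hashtags by edgeR, filled where the adjusted p was under 0.05. Apoe stands furthest to the right in border macrophages (2.98), with Apoc1 in DAM-marker microglia (2.57), and Trem2 furthest to the left in border macrophages (−1.75).

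Within microglia, cells with at least 3 UMIs of at least 2 disease-associated microglia (DAM) markers, out of 1000, were compared with cells that had none. The 11 markers used include Spp1, Itgax, Cst7 and Gpnmb and none of the 7 genes. Such cells made up 2.03% of microglia after PBS and 1.96% after monomer, and 10.1% with vehicle and 7.75% with AZD1480 after PFF. Of the 7 genes, 5 were higher and 1 lower in them, where 47.1% of 10885 genes passed, 24.6% higher and 22.5% lower. Their median log2 fold change was 0.59, beside −0.02 over all genes.

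Apoe in DAM-marker microglia was 12814, 7023, 14797 and 9680 CPM in hashtags 1 to 4 of PFF + VH, and 14707, 7775, 11894, 18396 and 8365 CPM in hashtags 1 to 5 of PFF + AZD1480. In microglia without the markers it was 1246 to 3147 CPM, so the sets did not overlap. The log2 fold change was 2.49 ± 0.13, 5.63-fold, higher in 9 of 9 hashtags (edgeR adjusted p = 1.22e-14). Marker sums of cell types moved with the state in 9 of 9 hashtags too: border macrophage markers were 33.4 to 81.1 CPM against 18.5 to 50.8 CPM, endothelial markers 22.3 to 61.9 CPM against 10.3 to 18.8 CPM, and microglial markers 5312 to 6908 CPM against 9806 to 11291 CPM. Astrocyte markers were lower in 9 of 9, at 89.5 to 134 CPM against 118 to 166 CPM. Oligodendrocyte markers were too, at 43.3 to 65.8 CPM against 56.8 to 103 CPM. The part of other cell types in the values of the 7 genes was not tested. Apoc1 rose by 2.57 ± 0.29, from a mean of 3.44 CPM to 16.3 CPM. Tyrobp rose 2.12-fold (1.09 ± 0.07) and Trem2 1.48-fold (0.56 ± 0.05), both in 9 of 9 hashtags and without overlap. Abca1, the cholesterol exporter, rose by 0.59 ± 0.05. Lrp1 did not pass (0.04 ± 0.05, adjusted p = 0.59). Syk fell, at −0.49 ± 0.07 and in 9 of 9 hashtags, with 56.2 to 87.7 CPM against 104 to 147 CPM (adjusted p = 2.65e-06 in edgeR). The receptor and its adaptor thus stood higher in these cells and the kinase lower. Levels in PBS and monomer lay on the same sides: Apoe was 14608 and 6855 CPM in DAM-marker cells against 878 and 1297 CPM in cells without, and Syk 83.0 and 93.8 CPM against 147 and 140.0 CPM.

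Pathway genes not used to set the state are counted beside the 24.6% of all genes that were higher and the 22.5% that were lower. Of 11 genes of lipoprotein receptors and their regulators, 6 rose and 2 fell, led by Olr1 (4.26 ± 0.23), Cd36 (3.55 ± 0.20) and Msr1 (3.42 ± 0.15), with the receptor chaperone Lrpap1 at 1.02 ± 0.06. Of 16 genes of efflux, storage and lysosomal lipid, 9 rose and 3 fell, led by Ch25h, which makes 25-hydroxycholesterol (4.86 ± 0.16), Fabp3 (3.17 ± 0.20) and the lipid droplet coat Plin2 (1.78 ± 0.08). Of 17 signalling genes linked to Syk, 2 rose, with Malt1 at 1.53 ± 0.09, and 10 fell, with the phosphatase Inpp5d at −0.67 ± 0.05 and Pik3cg at −0.75 ± 0.07. The median of that list was −0.29. Of the 2 lipid carriers tested, Apoc2 rose (3.69 ± 0.22). Of 10 receptor, adaptor and regulator genes linked to Tyrobp or Trem2, 6 rose, with Hcst at 0.88 ± 0.11 and Itgb2 at 0.46 ± 0.05, and 3 fell. Among the latter were Siglech, a marker by which microglia were set (−0.91 ± 0.05), and Itgam (−0.70 ± 0.05).

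Interferon-marker microglia, set the same way from 10 interferon-induced genes, were rarer, at 0.545% of microglia after PBS and 0.445% after monomer. They made up 0.903% of PFF + VH and 0.274% of PFF + AZD1480 microglia. Apoe in them was 2691, 3050, 6427 and 11731 CPM in the order PBS, monomer, vehicle and AZD1480. In microglia without the markers it was 1460, 1652, 4249 and 3586 CPM. No test was run on these library values. Only 5 hashtags gave at least 10 such cells, a single one of them with AZD1480. Apoe alone of the 7 genes passed there, at 0.46 ± 0.09 and higher in 4 of 5 hashtags (edgeR adjusted p = 5.13e-05), where 6.48% of 11778 genes passed, 3.7% higher and 2.78% lower; 57.1% of the genes called were higher, against 72.9% with the size factors of DESeq2 and 82.9% in DESeq2. It did not pass in DESeq2 (adjusted p = 0.21), without the hashtag term (0.23), or without hashtag 4 of PFF + AZD1480 (0.33), and turned to −0.27 under a rule of 5 UMIs of 3 markers. That hashtag had 10 interferon-marker cells, at 11874 CPM against 3749 CPM in its microglia without the markers. The SE of 0.09 rests on a spread pooled over genes. The 4 PFF + VH hashtags held 6178, 2960, 8820 and 3771 CPM, against 4854, 3627, 5435 and 3679 CPM in their microglia without the markers. Microglial markers were 6450 to 8154 CPM in interferon-marker cells and 9083 to 10440 CPM in those without. Border macrophage markers were higher in hashtags 1 and 3 of PFF + VH and hashtag 4 of PFF + AZD1480. They were lower in hashtags 2 and 4 of PFF + VH. The part of other cell types in these Apoe values was not tested.

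AZD1480 was compared with vehicle in microglia over the hashtags. Of the 7 genes 2 passed, Tyrobp lower and Syk higher, where 26.7% of 13680 genes passed, 12.1% higher and 14.6% lower. The share of members called, 2 of 7, is near that background. Syk was 102, 99.1, 103 and 106 CPM in hashtags 1 to 4 of PFF + VH and 118, 130, 128, 136 and 128 CPM in hashtags 1 to 5 of PFF + AZD1480. All 5 treated values lay above all 4 vehicle values, and the log2 fold change was 0.27 ± 0.04 (edgeR adjusted p = 0.0011). Tyrobp was 2618, 2346, 2631 and 2657 CPM with vehicle and 2266, 2093, 2374, 1834 and 1906 CPM with AZD1480, a fall of −0.34 ± 0.08 (adjusted p = 0.010). The ranges touched at 1 vehicle hashtag. With hashtags assigned by MULTIseqDemux, which kept 16.9% of PFF + VH cells in 3 hashtags, neither passed (Tyrobp −0.15 and Syk 0.23).

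Apoe did not pass in all microglia. It was 4879, 3741, 5714 and 3876 CPM with vehicle and 4298, 2429, 4142, 3826 and 2102 CPM with AZD1480. The groups overlapped, with 2 treated hashtags well below the rest, and the log2 fold change was −0.49 ± 0.21 (edgeR adjusted p = 0.11). Trem2 was 1980, 1884, 1743 and 1927 CPM against 1755, 1791, 1864, 1782 and 1613 CPM, and also overlapped (−0.15 ± 0.06, adjusted p = 0.074; 0.042 in DESeq2). Abca1 (0.11 ± 0.08), Lrp1 (0.05 ± 0.05) and Apoc1 (−0.58 ± 0.48) did not pass. Without hashtag 3 of PFF + AZD1480, where Apoc1 was highest at 10.98 CPM, Apoc1 passed at −1.15 (adjusted p = 0.043 in edgeR) and so did Trem2 at −0.17.

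**Figure D4:**
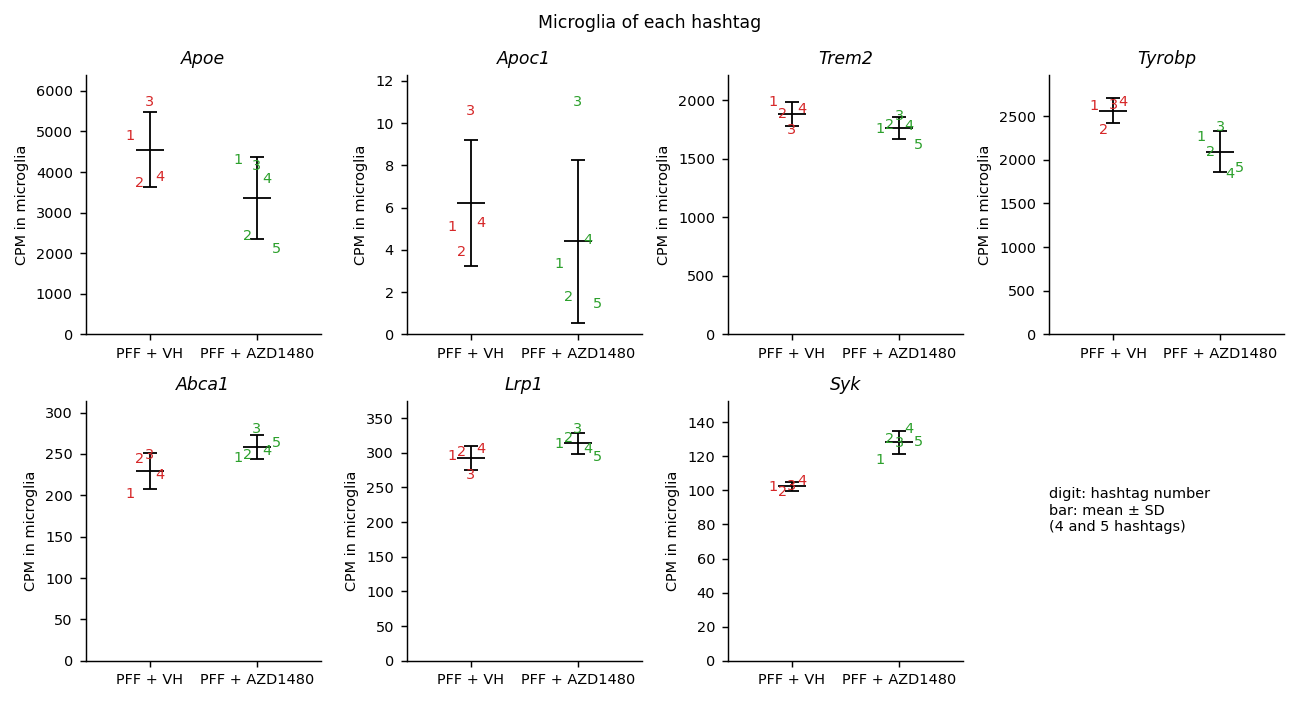
CPM in the microglia of each hashtag, drawn as its number, with the mean ± SD of 4 PFF + VH and 5 PFF + AZD1480 hashtags. The Syk values separate (99.1 to 106 against 118 to 136 CPM), and those of Apoe overlap.

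The comparison was then made within each state. In microglia without DAM markers, Apoe was 3147, 2749, 3052 and 2475 CPM with vehicle and 2298, 1312, 2686, 1605 and 1246 CPM with AZD1480. Of these, 1 treated value lay within the vehicle range, and the fall of −0.70 ± 0.20 passed (edgeR adjusted p = 0.024). It did not pass in DESeq2 (−0.69, adjusted p = 0.054), nor without hashtag 1 or 3 of PFF + VH (−0.66 and −0.65, adjusted p = 0.062 and 0.066) or hashtag 2 or 4 of PFF + AZD1480 (−0.60 and −0.65, both adjusted p = 0.051). Tyrobp fell there by −0.41 ± 0.08 without overlap (2088 to 2431 against 1528 to 1981 CPM, adjusted p = 0.0034) and Syk rose by 0.26 ± 0.06 (adjusted p = 0.0051). With MULTIseqDemux neither passed in edgeR (Tyrobp −0.23, adjusted p = 0.47, and Syk 0.27, adjusted p = 0.25). These 3 of 7 stood beside 22% of 12373 genes that passed, 9.56% higher and 12.4% lower. In DAM-marker microglia none of the 7 passed, where 3.19% of 9457 genes did, 1.44% higher and 1.76% lower. Apoe there was 11079 ± 3427 CPM (SD, n = 4) with vehicle and 12227 ± 4446 CPM (SD, n = 5) with AZD1480. The test of the difference itself, an interaction of state and treatment, passed for Apoe (0.87 ± 0.17, adjusted p = 0.0059), Tyrobp (0.52 ± 0.07, adjusted p = 0.00046) and Trem2 (0.26 ± 0.07, adjusted p = 0.037) in edgeR, where 1.85% of 10885 genes passed, 1.48% higher and 0.367% lower. Syk had −0.42 ± 0.12 (edgeR adjusted p = 0.062) and passed in 2 of 20 alternatives. Both the split and the interaction were chosen after the values by state had been seen. The Apoe interaction was 0.86 in DESeq2 (adjusted p = 0.056), 1.16 with MULTIseqDemux (0.093) and 0.79 under a stricter rule of 5 UMIs of 3 markers (0.052); under the latter 2 settings none of the 7 passed. The Trem2 interaction was lost without any one of 7 of the 9 hashtags (adjusted p = 0.058 to 0.11), with the size factors of DESeq2 (0.058) and with graph clusters (0.076), at 0.22 to 0.26 on the log2 scale, and without the filter on low counts (0.21, adjusted p = 0.097). Apoe in T cells was 604 CPM with vehicle and 1225 CPM with AZD1480, and in NK cells 1356 and 1703 CPM. This is the opposite order to microglia without DAM markers. In monocytes, B cells and neutrophils the order was that of those microglia, at 3432 and 2880, 1294 and 1109, and 1603 and 467 CPM. Microglial markers in neutrophils moved the same way. They were 5430, 2686 and 3817 CPM in hashtags 1, 3 and 4 of PFF + VH, and 1419 and 436 CPM in hashtags 4 and 5 of PFF + AZD1480. In B cells they were 1328 CPM with vehicle and 672 CPM with AZD1480. In microglia without DAM markers, border macrophage markers were 32.9 to 50.8 CPM with vehicle and 18.5 to 35.0 CPM with AZD1480. Astrocyte markers there were 118 to 140 CPM and 149 to 166 CPM. The part of free RNA or mixed droplets in these differences was not tested.

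**Figure D5:**
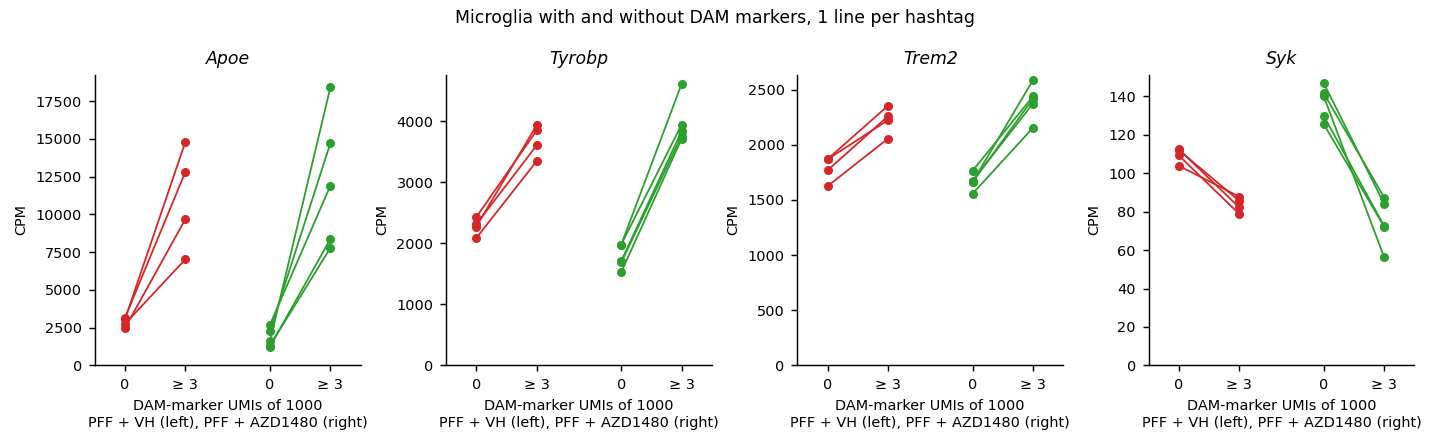
CPM of 4 genes in microglia with 0 and with at least 3 DAM-marker UMIs of 1000, with a line joining both values of each hashtag (PFF + VH left, PFF + AZD1480 right). Apoe, Tyrobp and Trem2 rise and Syk falls along every line, and without markers Tyrobp lies lower with AZD1480 (1528 to 1981 CPM) than with vehicle (2088 to 2431 CPM).

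Counted as the share of microglia with a UMI at equal depth (1000 UMIs per cell), 6 of the 7 genes differed with treatment by a two-sided exact permutation test over the 126 splits of 9 hashtags. Here no background over all genes was computed, so the count cannot be read as particular to these genes. The p-values were adjusted over the 7 genes only. In the edgeR test of the same microglia 26.7% of all genes tested passed. Apoe was found in 65.9% ± 2.24 (SD, n = 4) of vehicle microglia and 48.0% ± 6.74 (SD, n = 5) of treated microglia (exact permutation p = 0.016, the smallest the splits allow, adjusted p = 0.022). Tyrobp was found in 88.2% ± 0.66 and 78.7% ± 1.91, and Trem2 in 82.0% ± 1.75 and 78.1% ± 1.503. Syk was found in 9.41% ± 0.80 and 11.3% ± 0.68, Lrp1 in 24.4% ± 1.41 and 26.3% ± 0.51, and Abca1 in 18.8% ± 0.94 and 20.9% ± 1.16. Except for Abca1, the groups of these 6 genes did not overlap. At 2000 UMIs per cell 4 genes passed, Apoe, Trem2, Tyrobp and Syk, while Abca1 and Lrp1 overlapped and did not (both adjusted p = 0.11 by the exact permutation test). The shares in T cells of the vehicle and AZD1480 libraries (40 and 63 cells) are set beside these. They were 37.5% and 50.8% for Apoe, so that the 48.0% of treated microglia lay below that of T cells, although their Apoe level of 3648 CPM lay above the 1225 CPM of T cells. They were 37.5% and 31.7% for Tyrobp, 17.5% in both for Trem2, 2.5% and 3.17% for Lrp1 and likewise for Syk. For Abca1 they were 0, which allows up to 7.5% and 4.76%. For these 5 genes the shares in microglia lay above those in T cells, and the part of free RNA in the differences of 1.92 percentage points for Syk, 1.90 for Lrp1 and 2.08 for Abca1 was not tested. Counting only microglia with at least 3 Apoe UMIs, a rule added later, gave 32.3% ± 3.45 with vehicle and 19.4% ± 6.48 with AZD1480, again without overlap (exact permutation p = 0.016, adjusted p = 0.056).

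In border macrophages none of the 6 members tested passed for AZD1480 against vehicle, where 0.13% of 2304 genes passed (0.0434% higher, 0.0868% lower), 3 in edgeR and 13 in DESeq2 (223 genes had an unadjusted p under 0.05). Trem2 was 764, 733, 614 and 781 CPM with vehicle and 536, 526, 283, 514 and 489 CPM with AZD1480, a separation of −0.57 ± 0.19. It did not pass (edgeR adjusted p = 0.24). Hashtag 3 of PFF + AZD1480 held 10 border macrophages. The sum of microglial markers moved the same way, at 2230 to 2409 CPM with vehicle and 1842 to 2229 CPM with AZD1480, and its part in the Trem2 values was not tested. Tyrobp was 1982 to 2581 CPM against 1506 to 1978 CPM (−0.34 ± 0.17, adjusted p = 0.53). Apoe overlapped (−0.28 ± 0.17, adjusted p = 0.63 in edgeR) and turned to 0.42 with graph clusters in place of marker classes (adjusted p = 0.27). The border macrophage cluster held 1323 cells in PFF + VH and 543 in PFF + AZD1480, against 207 and 240 in the marker class. Apoc1 was too scarce to be tested, at 16.4, 37.7, 32.3 and 97.6 CPM with vehicle and 0, 16.8, 0, 4.85 and 0 CPM with AZD1480. Over the whole classes Apoc1 in border macrophages was 57.1 CPM (34 UMIs, 95% Poisson interval from 39.6) in PFF + VH, 9.98 CPM in PBS, 5.34 CPM in PFF + AZD1480 and 0 UMIs in monomer, where 3 counts would be 4.06 CPM. The list of lipoprotein receptors and their regulators had 1 gene past the threshold of 6, Cd36, at −1.67 ± 0.30 (adjusted p = 0.016). The AZD1480 difference did not pass as differing between border macrophages and microglia for any of the 7 genes (Apoe 0.27 ± 0.23, adjusted p = 0.87 in edgeR, Trem2 −0.37 ± 0.25, adjusted p = 0.83), where 0.448% of 10937 genes did (0.32% higher, 0.128% lower). With graph clusters the Apoe difference was 0.95 and passed (adjusted p = 0.013), and with a class rule of 4 times the marker UMIs the Trem2 difference turned to 0.065. Of the genes that passed in the marker classes 71.4% were higher, against 56.3% with the size factors of DESeq2 and 55.6% in DESeq2.

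Partner genes in microglia are counted beside the 12.1% of all genes that were higher with AZD1480 and the 14.6% that were lower. Of 18 signalling genes linked to Syk, 5 rose with AZD1480 and 1 fell: the phosphatase Inpp5d (0.40 ± 0.06), Blnk (0.36 ± 0.04) and Malt1 (0.26 ± 0.08) rose, and Vav3 fell (−1.01 ± 0.29). Of 11 receptor, adaptor and regulator genes linked to Tyrobp or Trem2, 5 fell and none rose. That list includes Siglech, a marker by which microglia were set. The falls were led by Treml2, a relative of Trem2 (−1.24 ± 0.12), Hcst, the adaptor DAP10 (−0.58 ± 0.10), and Ms4a6d (−0.29 ± 0.06). Of 11 genes of lipoprotein receptors and their regulators, 3 fell, among them Cd36 (−1.28 ± 0.28) and Olr1 (−0.79 ± 0.15). The 2 that rose were the receptor Scarb1 (0.35 ± 0.12) and Mylip, a ligase that targets lipoprotein receptors for degradation (0.36 ± 0.07). Cd36 and Vav3 stood higher in border macrophages than in microglia, by 6.71 and 7.25 on the log2 scale. Border macrophage markers in the microglia of each hashtag were 38.9 to 56.7 CPM with vehicle and 21.7 to 43.1 CPM with AZD1480. Their part in the falls of Cd36 and Vav3 was not tested. Of 20 genes of efflux, storage and lysosomal lipid, 5 rose and 3 fell, Ch25h by −1.08 ± 0.30 and Fabp5 by −0.51 ± 0.17, with Nceh1 (0.43 ± 0.13) and Abca7 (0.37 ± 0.10) higher. None of the 5 lipid carriers passed. The medians of the lists, in this order and with the carriers last, were 0.09, −0.15, 0.03, 0.03 and 0.32, beside 0.00 over all genes.

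Over 18 sums of a class in a library, the genes most like Apoe in level were Folr2 (Pearson's r = 0.97), Gas6 (0.96), Fcgrt (0.95), Pltp (0.94) and Msr1 (0.94), out of 3676 genes. Folr2 is a marker by which border macrophages were set. Those most like Trem2 were Cst3 (0.99), Ctsl (0.99), Ctss (0.98), Lrp1 (0.98) and Ppfia4 (0.98). The sums of 1 library share its depth and free RNA, and these values describe cell types rather than changes. Between Apoe and Trem2 the same r was 0.59.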

How the data were processed

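UMI counts of CD45+ midbrain cells were taken as deposited: unnormalized gene counts per droplet made by the authors with Cell Ranger (7.0.1 per the file headers) on mm10, with hashtag antibody counts for both PFF libraries. Droplets of 500 to 15000 UMIs, 250 to 5000 genes and at most 10% mitochondrial UMIs were kept, and a class needed 3 UMIs of 2 of its markers and 2 times the UMIs of the next class. Droplets in which no class reached 2 times the UMIs of the next, or with several hashtags (HTODemux, Seurat 5.3.0), entered no hashtag sum. Droplets kept could still hold fewer markers of another class. A rule of 4 times the UMIs left 86 of the 207 border macrophages of PFF + VH. No other doublet caller was run. Counts were summed per hashtag and class (at least 10 cells) and tested with edgeR 4.0.16 (quasi-likelihood, TMM, filterByExpr, Benjamini-Hochberg over all genes tested, threshold 0.05), with the hashtag as a term where classes or states of the same hashtag were compared. The SE is the log2 fold change divided by the root of F. Clec7a, a DAM marker, was not used here. The members and lists were chosen with earlier results of these data known; named partner genes are the 4 of each list past the threshold with the largest change, or fewer. Intervals cover counting error only. Alternatives were scaling, DESeq2, count filter, hashtag caller, class and state rules, thinning to 2000 UMIs, and leaving out each hashtag. Scripts were tested on simulated data. That each hashtag is 1 sample of pooled animals is an assumption. Hashtags numbered 1 to 4 in both libraries did not pair: correlations of their deviations over 13680 genes were −0.04 to 0.08.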

Additional observations from a re-analysis of the deposited data

Results flagged for a closer look

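Of 77 groups of 4 or 5 hashtags examined for 1 sample far from the rest, 6 had one, where chance gives about 1 in 20. In microglia, Tyrobp of hashtag 2 of PFF + VH was 2346 CPM, below the next value of 2618 CPM. In border macrophages, Abca1 of the same hashtag was 587 CPM, above the next value of 372 CPM. With AZD1480, Apoc1 in border macrophages was 16.8 CPM in hashtag 2 (3 UMIs) against 4.85 CPM in the next, and Trem2 was 283 CPM in hashtag 3 (9 UMIs in 10 cells) against 489 CPM. In DAM-marker microglia with AZD1480, Tyrobp was 4615 CPM in hashtag 3 against 3949 CPM. In microglia without DAM markers, Apoc1 of that hashtag was 11.03 CPM against 1.80 CPM in the next, and without it the AZD1480 difference of Apoc1 moved from −0.60 to −1.96 (edgeR adjusted p = 0.0024).

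The AZD1480 difference was more positive in DAM-marker microglia than in microglia without the markers for Apoe by 0.87, for Tyrobp by 0.52 and for Trem2 by 0.26 on the log2 scale, by the interaction test. That test was added after the values by state had been seen. Over 20 alternatives it passed in 17 for Apoe, 18 for Tyrobp and 8 for Trem2, whose adjusted p reached 0.59 in edgeR with MULTIseqDemux.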

How the results depend on the processing

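Hashtags with the same number did not deviate together, so a replicate block shares only a number. The fit with this block also left out hashtag 5 of PFF + AZD1480, a number that PFF + VH lacks. That hashtag held the lowest Apoe value in microglia, 2102 CPM. With both changes, 3202 genes and 3 of the 7 passed for AZD1480 in microglia, and 2 genes in border macrophages. Apoe was among the 3 (−0.37, adjusted p = 0.042 in edgeR). Without the hashtag block, 3390 genes passed between the classes and none of the 7 (0) in interferon-marker microglia. With MULTIseqDemux, which left no cells in hashtag 4 of PFF + VH, 0 members and 944 genes passed in microglia, 1 and 547 without DAM markers, 76 genes in DAM-marker microglia (Apoe −0.15), 0 members and 11 genes for the state interaction, 20 genes for the class interaction, 4 members between classes, and 314 genes for interferon markers; Syk in border macrophages was 0.19. In border macrophages the 3 genes became 13 in DESeq2, 61 with no filter on low counts, 1 at 4 times the marker UMIs, 22 with any excess of marker UMIs and 68 with graph clusters. The class interaction went from 49 genes to 27, 29, 96 and 77 in DESeq2, at 4 times the UMIs, with any excess and with graph clusters. Graph clusters gave 1 member there, Apoe at 0.95, and in border macrophages Apoe 0.42, Lrp1 −0.027 and Syk 0.058 for AZD1480. Between classes they gave Tyrobp 0.084 and Syk 0.47. The border macrophage cluster held more cells than the marker class, 1323 against 207 in PFF + VH. At 4 times the UMIs Lrp1 was −0.014, Syk 0.094 and the Trem2 class interaction 0.065. With at least 1000 UMIs per cell Lrp1 was −0.080, and with hashtag values centred within cells Syk was 0.021. Lrp1 in DAM-marker microglia was −0.043 with no filter and −0.058 at 5 UMIs of 3 markers. The 302 genes of DAM-marker microglia with AZD1480 became 633 with no filter and 31 at 5 UMIs, where the state interaction had 0 members and 11 genes against 201. In interferon-marker microglia 0 members passed in DESeq2 (480 genes) and at 5 UMIs (Apoe −0.27), 2 with no filter, with centring within cells or with any excess of marker UMIs, and 3 with graph clusters; Abca1 was 0.057 with RLE scaling and 0.056 in DESeq2. For shares, 3 members passed unthinned (Trem2 1.70 percentage points) and 0 at 3 UMIs (Apoc1 0.030). The cause of these changes was not tested.

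Leaving out each hashtag in turn gave, for AZD1480, 2 to 4 members and 2835 to 3312 genes in microglia, 2 to 5 and 2079 to 2437 without DAM markers, 0 and 172 to 273 in DAM-marker microglia, and 0 and 1 to 6 in border macrophages. It gave 2 to 3 members and 44 to 221 genes for the state interaction, 34 to 60 genes for the class interaction, 0 to 2 members and 542 to 679 genes for interferon markers, and 0 to 6 members for shares, where few splits remain. Ranges that crossed 0 were Lrp1 −0.078 to 0.14 and Syk −0.41 to 0.021 in border macrophages, Lrp1 −0.0063 to 0.055 without DAM markers, Apoe −0.064 to 0.31 in DAM-marker microglia, and Abca1 −0.16 to 0.14 with interferon markers. Border macrophages numbered 10 to 61 per hashtag, and whether depth or cell number set the number of calls was not tested.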

Other observations

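Cycling microglia, set from 8 proliferation genes by the same rule as the other states, held less Apoe than microglia with none of these genes in each of the 4 libraries. They held 335 and 387 CPM after PBS and monomer against 1476 and 1717 CPM, and 2128 and 2221 CPM with vehicle and AZD1480 against 4511 and 3611 CPM. Abca1 was also lower, at 51.0, 94.7, 128 and 129 CPM against 211, 247, 231 and 260 CPM. Syk was lower too, at 104.9, 55.2, 82.3 and 71.8 CPM against 145, 137, 104.98 and 129 CPM, and Lrp1 at 224, 260.4, 241 and 197 CPM against 326, 322, 296 and 316 CPM. Trem2 was 1058, 1113, 1542 and 1758 CPM against 1701, 1866, 1867 and 1770 CPM. Tyrobp was lower in 3 libraries and higher with AZD1480, at 2390 CPM against 2077 CPM. The cycling microglia numbered 40, 14, 317 and 48 in the same order, and no test was run. Microglia with some UMIs of the proliferation genes, but short of the rule, held 2096, 1490, 3600 and 4729 CPM of Apoe. After PBS and with AZD1480 this was more than in microglia with none, and in the others less.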
